A study of Mus musculus with 12 samples.

Results

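The genes described here are 9 members of the interleukin 1 (IL-1) receptor and NF-kB route: Il1r1, Il1rn, Il1b, Myd88, Nfkbia, Nfkbiz, Nfkb1, Rela and Cxcl1. They were read by all array probes whose symbol in the platform annotation is one of these names, which gave 14 of 45281 probes. No probe in the annotation used here carries the symbol Nfkb1, which is not analysed here, and the 14 probes cover the other 8 genes, of 19057 genes with a probe. The genes were selected on results of the comparison of ethanol with control kidneys (the log2 differences of genes of this route). Their differences in that comparison are therefore given only as a description. Member probes past a limma threshold are counted beside the share of all probes, and nothing is read from those counts.

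The samples are 12 whole kidneys from C57BL/6J males aged 28 days after birth, 6 labelled control and 6 labelled as exposed to ethanol before birth. The exposed mice came from mothers with free access to 10% (v/v) ethanol from fertilization to gestation day 8.5. The labels attach this treatment to every sample, controls included, so the groups were taken from the sample titles, and what the control mothers drank is not stated in them. The labels name neither mothers nor litters and do not say whether each sample is a separate animal; all p-values therefore reflect only the spread among these 12 samples, which may be technical. The kidneys were collected weeks after the exposure ended, and the question the design names is how gene expression in exposed offspring differs from that in controls.

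IL-1 beta, the product of Il1b, binds the receptor encoded by Il1r1, and the antagonist encoded by Il1rn occupies the same receptor without signalling. The bound receptor recruits the adaptor Myd88, which assembles kinases that free NF-kB dimers, such as the one of Rela and the Nfkb1 product, from their inhibitor Nfkbia. NF-kB then enters the nucleus and raises the transcription of target genes, among them the neutrophil-attracting chemokine Cxcl1 and, as feedback, Nfkbia itself; Nfkbiz is an inducible nuclear member of the inhibitor family that also acts as a co-activator. In the kidney this route is known mainly for its part in tubular injury and inflammation.

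Promoter sequences of 3 members are shown because they differ in the letters that NF-kB dimers read: Cxcl1 and Nfkbia, both textbook NF-kB targets, and Myd88, which lies upstream of NF-kB. Each is the 250 bases before the RefSeq gene start in assembly GRCm38.p6, written 5′ to 3′ on the strand of the gene. Capitals mark matches, on either strand, to GGG followed by any 5 bases and then CC, a simplified form of the NF-kB site, and overlapping matches run together. The Cxcl1 window is chr5:90890995-90891244 on the plus strand, the Nfkbia window is chr12:55492648-55492897 on the minus strand, and the Myd88 window is chr9:119340019-119340268 on the minus strand.
Cxcl1: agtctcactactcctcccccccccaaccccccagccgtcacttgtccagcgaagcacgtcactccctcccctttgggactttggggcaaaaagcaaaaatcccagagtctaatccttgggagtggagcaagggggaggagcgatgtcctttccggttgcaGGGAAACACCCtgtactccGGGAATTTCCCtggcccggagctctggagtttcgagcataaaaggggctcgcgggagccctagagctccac
Nfkbia: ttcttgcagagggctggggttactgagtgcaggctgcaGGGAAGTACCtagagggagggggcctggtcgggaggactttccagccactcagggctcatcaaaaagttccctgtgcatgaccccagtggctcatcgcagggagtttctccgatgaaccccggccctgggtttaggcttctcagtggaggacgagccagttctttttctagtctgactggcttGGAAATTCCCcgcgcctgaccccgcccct
Myd88: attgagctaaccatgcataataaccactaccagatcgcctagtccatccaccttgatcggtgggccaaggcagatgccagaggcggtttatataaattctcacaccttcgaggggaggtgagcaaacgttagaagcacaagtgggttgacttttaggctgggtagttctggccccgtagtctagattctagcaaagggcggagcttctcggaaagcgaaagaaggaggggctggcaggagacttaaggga
In the Cxcl1 window the matches fall at 2 places, the first beginning 90 and the other 71 bases before the start. The letters GGGAATTTCC at the nearer place also occur in the Nfkbia window, where they are read on the opposite strand 29 bases before the start. The Nfkbia window holds a further match, GGGAAGTACC, 212 bases before the start, and the Myd88 window holds none. RefSeq promoters were given for 7 of the 9 members, and 5 of those genes (Il1r1, Il1rn, Nfkbia, Rela and Cxcl1) held a match in at least 1 window. The Il1b window held none, like that of Myd88, while the receptor gene Il1r1, upstream of NF-kB, held 1. The 3 windows shown therefore do not set NF-kB targets apart from upstream genes. Among all genes with a promoter 48.7% held one, so a match is common and says nothing of binding.

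Signals were read on Illumina bead arrays as fluorescence intensity. Background, here the level of probes with no target, was estimated on each array as the mode of its values, and its SD from the values under that mode. An intensity more than 1.64 SDs over the mode was counted as above background, and probes that met this on 6 or more of the 12 arrays were tested. This left 23984 probes and 12618 genes, with 10 of the 14 member probes tested and each of the 8 genes covered by at least 1 of them. Values below are log2 intensity after background correction, addition of an offset of 16 and quantile normalization; the offset makes differences of dim probes smaller than the change in signal. Levels of different probes are not compared, because probes differ in how brightly they bind. The arrays correlated with each other between 0.952 and 0.992, and control sample 4 stood farthest from the rest on the first principal component, which held 32.6% of the variance. All 7 tested markers of kidney epithelium, among them Umod, Slc12a1 and Aqp2, were above background on all 12 arrays.

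Detection over background differed between the members. Both Myd88 probes, both Nfkbia probes and the probes of Nfkbiz, Rela and Cxcl1 were above background on all 12 arrays. The medians were 164 and 53.9 background SDs for Myd88, 55.2 and 33.2 for Nfkbia, 57.9 for Nfkbiz, 129 for Rela and 7.60 for Cxcl1. The receptor, its ligand and its antagonist were near the limit of detection. The brighter Il1r1 probe had a median of 3.03 background SDs and was above background on 11 arrays, the Il1b probe had 2.27 SDs on 9 arrays, and the brightest Il1rn probe had 1.49 SDs on 6 arrays. The other Il1r1 probe was above background on 0 arrays, and the remaining Il1rn probes on 3, 1 and 0 arrays.

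**Figure D1:**
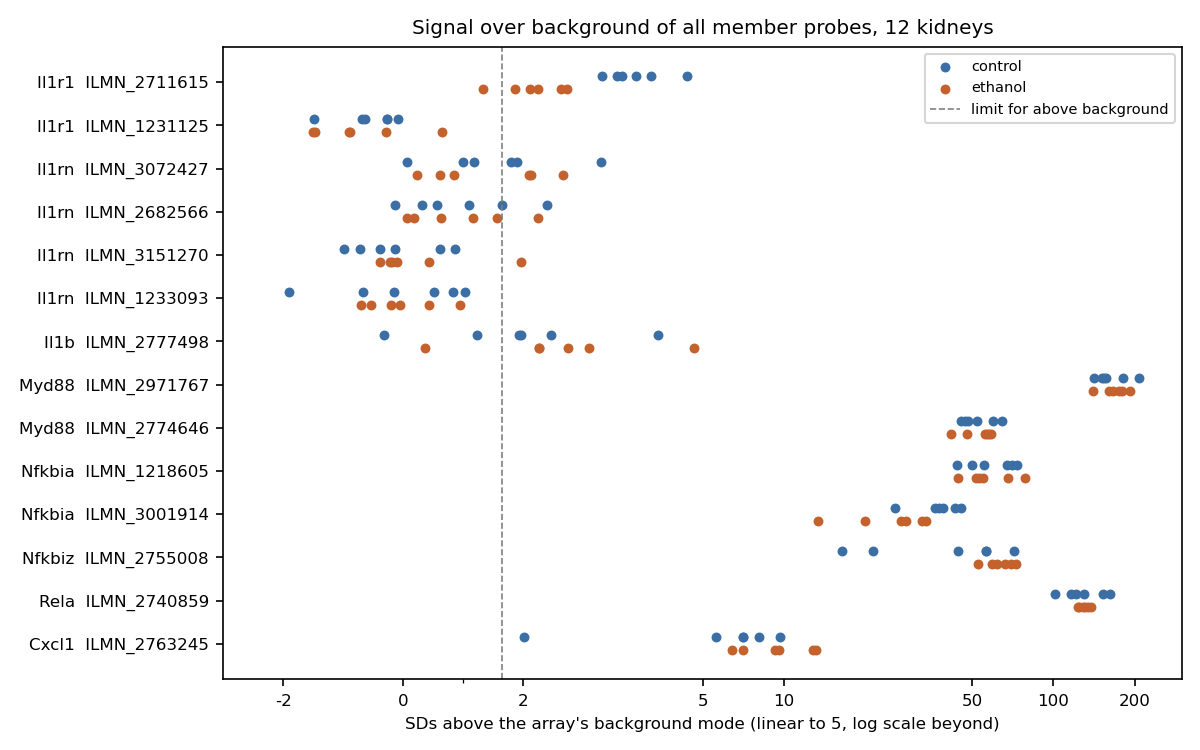
Signal of all 14 member probes on the 12 arrays, as the number of background SDs above each array's background mode (horizontal axis, linear to 5 and logarithmic beyond), with 1 point for each kidney coloured by group and a dashed line at the limit for above background. Probes of Il1r1, Il1rn and Il1b lie around the limit, and those of Myd88, Nfkbia, Nfkbiz and Rela lie far to its right.

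Of the 10 tested member probes, 0 passed a limma adjusted p of 0.05 (Benjamini-Hochberg over all tested probes), beside 0% of the 23984 probes; the lowest adjusted value of any probe was 0.301. At an unadjusted p under 0.05, 4 member probes were counted, where 12.2% of all tested probes were. Of these, 2 were higher in ethanol (Nfkbiz and Cxcl1; 5.35% of all probes) and 2 were lower (Il1r1 and 1 Nfkbia probe; 6.81% of all probes). The groups did not overlap for 1 member probe, that of Il1r1, and for 0.484% of all tested probes (0.204% with all controls above all ethanol kidneys). Nothing is read from these counts, since this comparison was known when the genes were listed.

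**Figure D2:**
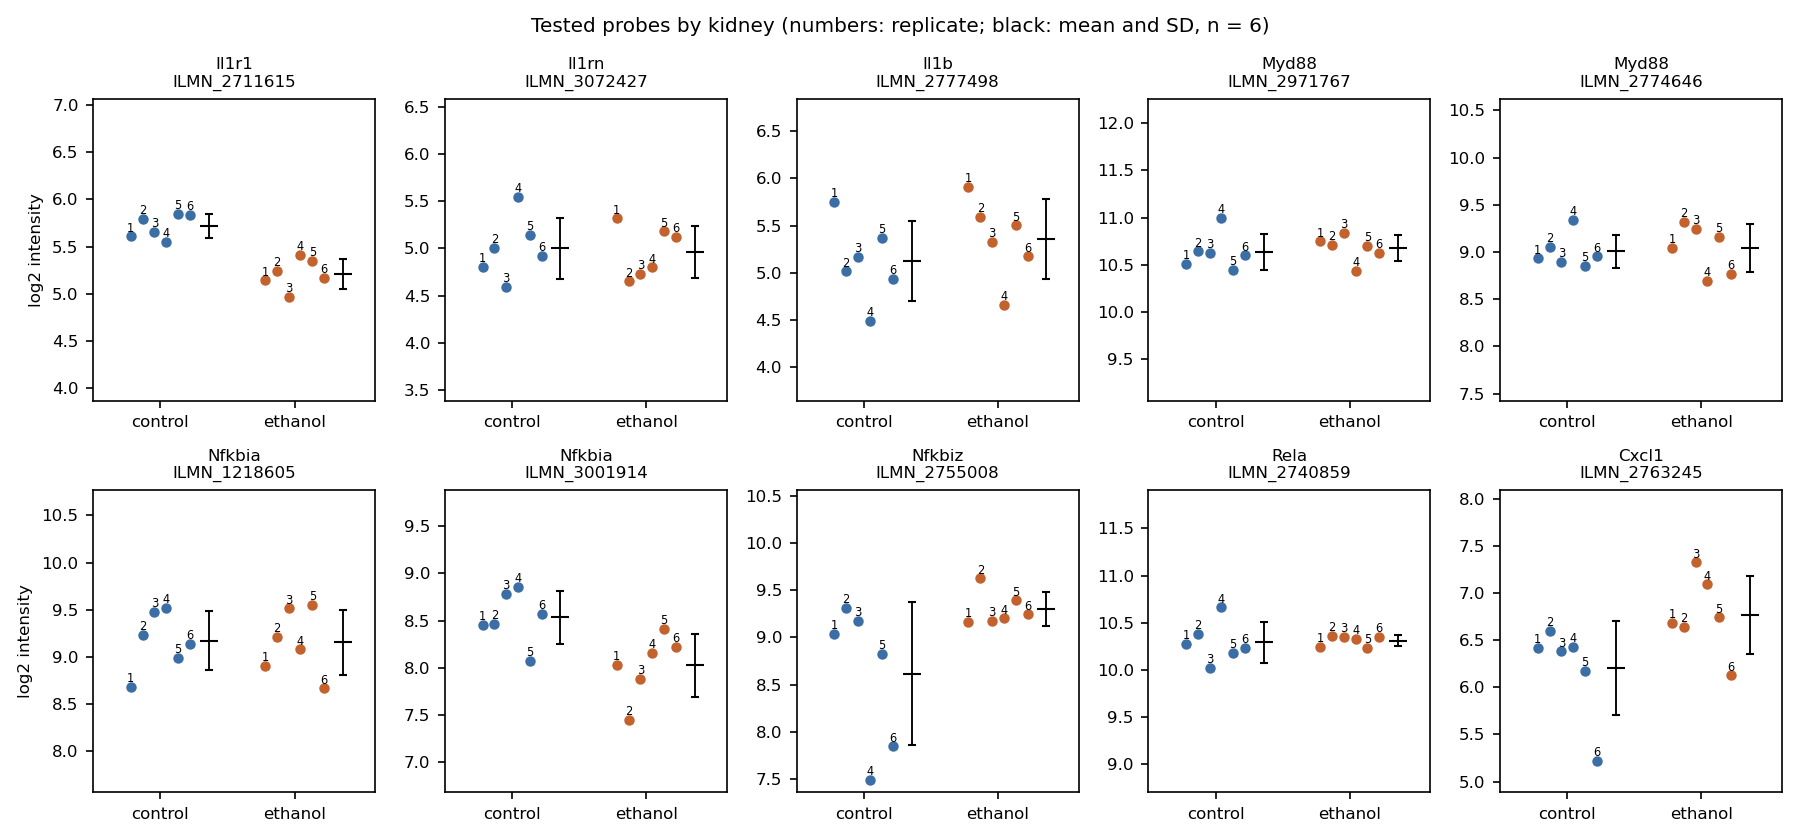
Log2 intensity of the 10 tested member probes, 1 panel each with axes of equal span, by kidney (points numbered by replicate) in the control and ethanol groups of 6, with black bars for the group mean and SD. The groups separate for Il1r1, and for Nfkbiz and Cxcl1 control 4 or control 6 lie far below the other controls.

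Il1r1, the signalling receptor for IL-1, was lower in the ethanol kidneys. Log2 intensity ranged from 5.55 to 5.85 in the controls, with a median of 5.73, and from 4.97 to 5.41 in the ethanol kidneys, with a median of 5.21. Every control lay above every ethanol kidney, with 0.14 between the lowest control and the highest ethanol kidney (ethanol 4). The means were 5.72 ± 0.128 and 5.21 ± 0.159 (SD, n = 6 each), a difference of -0.50 ± 0.11 (SE), which is 1.42-fold higher in controls on this offset scale. The probe is dim, with a deposited intensity of 16.1 to 41.0, and ethanol 3 was the only kidney in which it was not above background. The size therefore moved with the treatment of background, from -0.85 without background correction to -0.28 with an offset of 50. The sign stayed negative in all 22 alternative settings, among them the 4 that change background, offset or scaling. Leaving out kidneys could hardly turn it, because the groups did not overlap. In whole tissue, fewer Il1r1-bearing cells and less Il1r1 RNA per cell cannot be told apart. Markers of endothelium, a cell type that bears the receptor, had a median difference of -0.47 over 7 tested genes, 5 of them below 0. Of these, 3 were lower at an unadjusted p under 0.05 (Pecam1 -0.47, Eng -0.74, Cldn5 -0.49; limma adjusted p 0.379 each), and all but Kdr were above background on 12 arrays. Their summed background-corrected intensity overlapped between the groups, at 9236 to 12111 in controls and 9614 to 10973 in ethanol kidneys. That sum came mostly from Emcn (0.04), which had a control mean of 12.91. Cdh5 was at -0.03 by its brightest probe and Kdr at 0.01. The list median of -0.47 is the value of the brightest Pecam1 probe, and the other Pecam1 probes gave -0.19 and -0.10. The part of these endothelial markers in the Il1r1 difference was not tested. T lymphocyte markers were also below 0 in 3 of 3 tested genes of 8 listed, with a median difference of -0.63. Of these, Cd3d (-0.63) and Cd3e (-0.74) were lower at an unadjusted p under 0.05 (limma adjusted p 0.388 and 0.379). Cd8a was above background on 0 arrays. The summed intensity ran from 6189.6 to 10153 in controls and from 6222 to 9634 in ethanol kidneys. That sum came mostly from the brightest Cd8b1 probe (control mean 12.94, difference -0.12), so it says little of Cd3d or Cd3e. A dimmer Cd8b1 probe gave -0.84 (limma adjusted p 0.379). The part of T lymphocyte markers in the Il1r1 difference was likewise not tested. The median difference was 0.01 over 7 fibroblast and pericyte markers, -0.20 over 3 red cell markers and 0.36 over 4 fat markers.

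Il1b, the ligand, was above background in 4 control and 5 ethanol kidneys. Its log2 intensity ran from 4.49 to 5.75 in the controls (median 5.09) and from 4.66 to 5.91 in the ethanol kidneys (median 5.42). The groups overlapped almost wholly, with control 4 and ethanol 4 lowest in their groups and replicate 1 highest in both. The difference was 0.24 ± 0.22 (SE), close to its own error. Without control 4 it was 0.11, and without ethanol 4 it was 0.38.

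Il1rn, the receptor antagonist, was read by 4 probes, of which only the brightest was tested. That probe ranged from 4.59 to 5.54 in controls and from 4.65 to 5.32 in ethanol kidneys, with medians of 4.96 in both. Control 4 was the highest of all 12 kidneys. The difference was -0.04 ± 0.16 (SE), and its sign turned in 8 of 22 alternative settings, including 2 of the 4 scalings. The 3 untested Il1rn probes gave no measured level in most kidneys.

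Myd88, the adaptor shared by the IL-1 receptor and most Toll-like receptors, was well above background by both probes. Its brighter probe ranged from 10.45 to 11.00 in controls (median 10.61) and from 10.44 to 10.84 in ethanol kidneys (median 10.70). Control 4 was the highest kidney and stood apart from the other controls, while the remaining kidneys of both groups were intermixed. The difference was 0.04 ± 0.11 (SE) by this probe and 0.03 ± 0.13 by the other. Signs turned in 1 of 24 and 3 of 23 alternative settings, so neither probe gave a direction beyond its error.

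Rela, the p65 subunit that carries the activation domain of NF-kB, had nearly equal group means. It ranged from 10.02 to 10.66 in controls (median 10.26) and from 10.24 to 10.36 in ethanol kidneys (median 10.34). The ethanol kidneys all lay inside the range of the controls, in which control 4 was highest and control 3 lowest. The SD was 0.218 in controls and 0.0565 in ethanol kidneys, and the difference of the means was 0.02 ± 0.11 (SE), with its sign turned in 3 of 23 alternative settings.

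Nfkbia, the inhibitor that holds NF-kB in the cytoplasm, was read by 2 bright probes that did not give the same picture. The brighter probe ranged from 8.68 to 9.52 in controls (median 9.19) and from 8.67 to 9.55 in ethanol kidneys (median 9.15), a difference of -0.02 ± 0.18 (SE). The dimmer probe ranged from 8.08 to 8.86 in controls (median 8.52) and from 7.45 to 8.41 in ethanol kidneys (median 8.09), a difference of -0.51 ± 0.17 (SE), or 1.42-fold higher in controls. By the dimmer probe ethanol 2 and ethanol 3 were the lowest kidneys, and the groups overlapped because control 5 lay below several ethanol kidneys. Its difference kept its sign in all 23 alternative settings, from -0.60 to -0.33, and was -0.33 without ethanol 2 and ethanol 3. The filter, variance prior and replicate block settings among them could not turn the sign, because they leave the difference as it stands. The annotation assigns both probes to the same transcript, and the mean of the 2 probes gave -0.26. No direction is given for Nfkbia, since the answer depends on the probe.

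**Figure D3:**
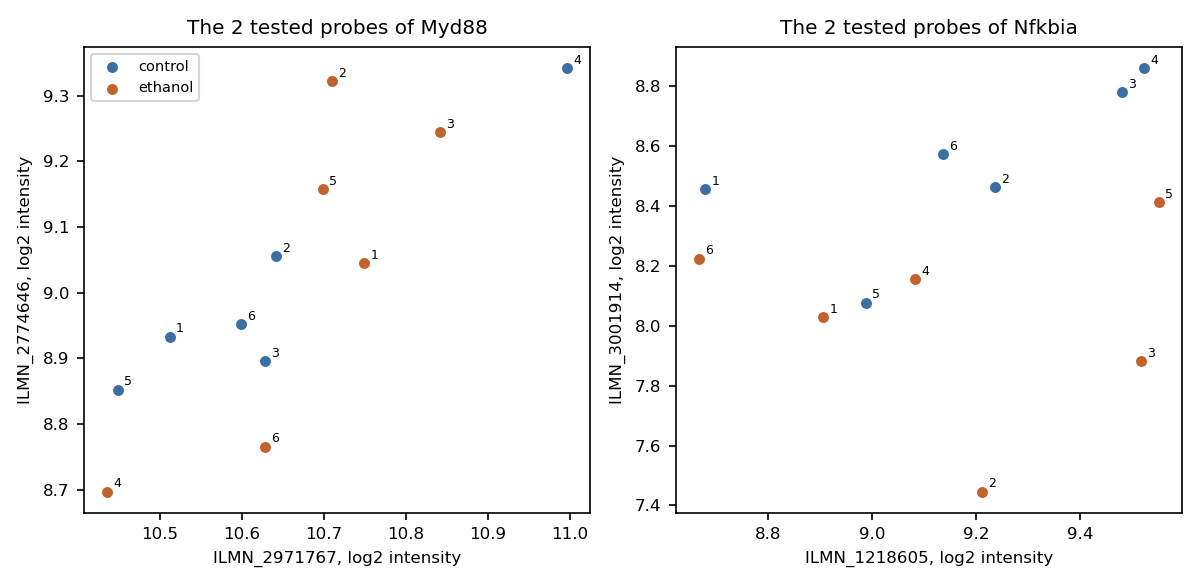
The brighter probe (horizontal axis) against the dimmer probe (vertical axis) of Myd88 and of Nfkbia, in log2 intensity, with 1 point for each of the 12 kidneys coloured by group. The Myd88 points follow a line (Pearson r 0.83), and the Nfkbia points scatter (r 0.22), with the ethanol kidneys low on the dimmer probe only.

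The kidneys were ordered alike by both Myd88 probes, with r = 0.83 and Spearman rho = 0.86 over 12 kidneys. For the Nfkbia probes r was 0.22 and rho 0.27. These values describe probes of 1 RNA read on the same arrays, and they carry no test. Across the 3242 genes with exactly 2 tested probes the median r was 0.41, with quartiles of 0.06 and 0.74. The Myd88 pair was above 83.0% of these genes and the Nfkbia pair above 35.0% of them.

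Nfkbiz, the inducible nuclear inhibitor family member, was higher on average in the ethanol kidneys, and 2 control kidneys carried much of that difference. It ranged from 7.49 to 9.31 in controls (median 8.93) and from 9.16 to 9.62 in ethanol kidneys (median 9.22). Control 4 and control 6, at 7.49 and 7.84, lay far below the other 4 controls, whereas controls 2 and 3 lay within the ethanol range. The means were 8.61 ± 0.758 and 9.30 ± 0.179 (SD, n = 6 each), a difference of 0.69 ± 0.28 (SE) or 1.61-fold. Without control 4 the difference was 0.46, and without control 4 and control 6 it was 0.21. Control 4 is also the array that stood apart over all probes; its part in the Nfkbiz values was not tested beyond leaving it out.

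Cxcl1, the neutrophil-attracting chemokine, was likewise higher on average in the ethanol kidneys. It ranged from 5.22 to 6.60 in controls (median 6.40) and from 6.13 to 7.32 in ethanol kidneys (median 6.71). Control 6 was lowest by a wide margin, ethanol 3 and ethanol 4 were highest, and 5 of the 6 ethanol kidneys lay above all controls. The means were 6.20 ± 0.502 and 6.77 ± 0.412 (SD, n = 6 each), a difference of 0.56 ± 0.23 (SE) or 1.48-fold. Without control 6 the difference was 0.37, and the sign was positive in all 23 alternative settings. The filter, variance prior and replicate block settings among them leave the Cxcl1 difference as it stands. Leaving out 1 kidney could hardly turn the sign, since 5 of the 6 ethanol kidneys lay above all controls. Neutrophil markers were dim: 5 of 11 were tested, Ngp and Cxcr2 were above background on 0 arrays, and Mpo, Camp and Retnlg were above on at most 3. The summed intensity of the 5 tested markers (S100a8, S100a9, Elane, Ltf and Csf3r) was 120 to 310 in controls and 138 to 324 in ethanol kidneys. The median difference of these markers was 0.24, with Csf3r at 0.45 (limma adjusted p 0.379), and 0.03 without control 4; their part in the Cxcl1 values was not tested.

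Co-variation was measured after subtracting each group's mean, so that the ethanol comparison did not enter it. Over the 28 pairs of the 8 genes, Pearson r ran from -0.68 to 0.59 with a median of -0.09, and 11 pairs were positive and 17 negative. In a two-sided permutation test within groups (100000 permutations, Benjamini-Hochberg over 28 pairs), 0 pairs passed an adjusted p under 0.05 and 1 pair had an unadjusted p under 0.05 by each of r and rho.

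The pair with the largest r in size was Il1r1 and Myd88, receptor and adaptor, which ran in opposite directions. Over 12 kidneys r was -0.68 (permutation p = 0.0116, adjusted p = 0.325) and rho was -0.59 (permutation p = 0.0536, adjusted p = 0.750). It was -0.53 without the 2 kidneys farthest from the median of Il1r1, -0.62 within controls and -0.80 within ethanol kidneys. From the deposited intensities with no normalization between arrays r was -0.14, so its size depended on the scaling. Myd88 and Nfkbia ran together, with r = 0.57 (permutation p = 0.0637, adjusted p = 0.552) and rho = 0.61 (permutation p = 0.0468, adjusted p = 0.750). That r was 0.65 without the 2 farthest kidneys and 0.26 with the other Nfkbia probe.

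The pairs of Rela with Myd88 and with Nfkbiz rested on control 4. For Myd88 and Rela r was 0.59 (permutation p = 0.118, adjusted p = 0.552) and rho 0.36 (permutation p = 0.256, adjusted p = 0.927). Without the 2 kidneys farthest from the Myd88 median r was 0.04, and it was 0.78 within controls and -0.15 within ethanol kidneys. In control 4 Myd88 and Rela were both at their highest and Nfkbiz at its lowest. For Nfkbiz and Rela r was -0.55 (permutation p = 0.241, adjusted p = 0.613) and rho -0.15 (permutation p = 0.703, adjusted p = 0.927), and r was 0.24 without the 2 farthest kidneys. Il1rn and Nfkbiz gave r = -0.55 (permutation p = 0.0963, adjusted p = 0.552) and rho = -0.50 (permutation p = 0.0990, adjusted p = 0.924), and r was -0.16 without the 2 farthest kidneys. These relations did not hold without those kidneys. RNA of Cxcl1, the target gene, did not closely follow RNA of Nfkbia, Nfkbiz or Rela. Its r was 0.39 with the brighter Nfkbia probe, 0.34 with Nfkbiz and 0.18 with Rela. The adjusted permutation p was 0.613, 0.732 and 0.822. Protein was not measured.

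**Figure D4:**
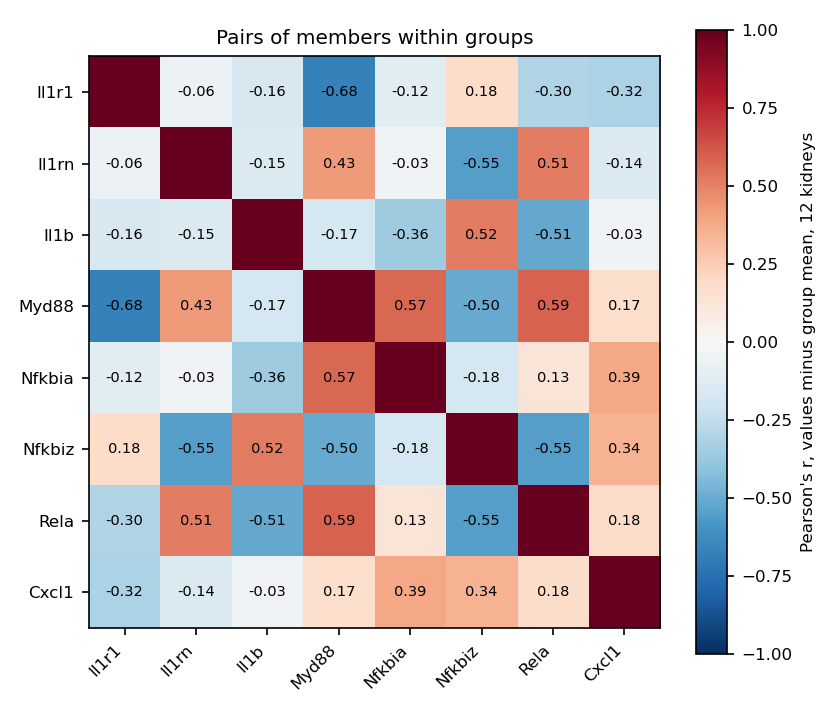
Pearson r between the 8 member genes over 12 kidneys after each group's mean was subtracted, with colour from negative to positive and the value written in each cell. The lowest cell is Il1r1 with Myd88 (-0.68) and the highest is Myd88 with Rela (0.59), and 0 of 28 pairs passed the adjusted permutation test.

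The genes whose profiles were most like each member's were those with the highest group-centred r over 12 kidneys. Members, and genes with predicted or clone names, were left out of this search. The genes found are the extremes of many comparisons and are given with no test. Il1r1 was nearest to Nr2e1 (0.89), an orphan nuclear receptor of neural progenitors, to Pim1 (0.88), a serine/threonine kinase induced by cytokines, and to Ankrd61 (0.87). Il1b was nearest to Bcl2a1b (0.91), a survival protein of the BCL2 family found in blood cells, and to Agbl3 and Cdkl1 (both 0.84). Il1rn was nearest to Paxx (0.90), a DNA repair protein, and to Map1s and Rae1 (both 0.89).

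Myd88 was nearest to Vps37b (0.96), which sorts endosomal cargo, and to the zinc transporter Slc39a5 and Nmral1 (both 0.93). Nfkbia was nearest to the efflux pump Abcb1b (0.95), the metal-responsive transcription factor Mtf1 (0.92) and Thap4 (0.91). Rela was nearest to Dym (0.97), Bscl2 (0.94) and the transcription factor Nfix (0.93). Nfkbiz was nearest to Rab26os, Pik3r3, a regulatory subunit of phosphoinositide kinase, and Tm6sf1 (0.94 each). Cxcl1 was nearest to the olfactory receptor gene Olfr320 (0.91), the epoxide hydrolase Ephx1 (0.90) and Axin2 (0.89), a Wnt pathway inhibitor. Members could not appear in these lists, so their closeness to each other is given only by the pairs above.

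The members differed in how much of the transcriptome varied with them. A correlation of at least 0.6 in size was found with 2.87% of the other genes for Il1r1, 5.42% for Nfkbia, 6.2% for Il1b and 8.49% for Cxcl1. The shares were 12.6% for Il1rn, 14.3% for Myd88, 19.6% for Rela and 24% for Nfkbiz. The median share over all genes was 11.1%, with quartiles of 6.47% and 20.0%. Il1r1 thus had fewer such genes than most, and Nfkbiz had more. The log2 intensity of Nfkbiz was lowest in control 4 (7.49) and control 6 (7.84). These arrays also had the lowest values on the first principal component, at -62.5 for control 4 and -28.8 for control 6. The Il1r1 probe was dim, with a median of 3.03 background SDs. The part of these arrays, and of dim signal, in the shares was not tested.

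The other genes of the route were taken from lists by function. In all, 83 of 118 listed genes were tested, 0 passed a limma adjusted p of 0.05, and 0.379 was the lowest adjusted value. At an unadjusted p under 0.05, 5 were higher (4.72% of all genes) and 4 lower (4.95% of all genes). Their median difference was -0.02, with 41 above 0 and 42 below, beside a median of 0.02 over all 12618 genes. The median of the 8 member genes was 0.03, with 5 above 0 and 3 below.

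Around the receptor, 7 of 16 listed IL-1 family ligands, receptors and decoys were tested, with a median difference of 0.07. Il18r1, the IL-18 receptor, was highest at 0.50 and Sigirr, which dampens IL-1 receptor signalling, was lowest at -0.77. For Sigirr the means were 8.62 ± 0.587 in controls and 7.85 ± 0.779 in ethanol kidneys (SD, n = 6 each; limma adjusted p = 0.403). The co-receptor Il1rap had 3 tested probes that differed in sign, at -0.20, 0.15 and 0.38 (limma adjusted p 0.733, 0.732 and 0.382). The second ligand Il1a, by 2 probes, and the decoy receptor Il1r2 were above background on 0 arrays.

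Between receptor and inhibitor, all 18 adaptors and kinases with a probe were tested, 9 above 0 and 9 below, with a median of 0.00. Traf6, the ubiquitin ligase that relays the signal from Myd88, gave 0.23 by its brightest probe and 0.25, -0.03 and 0.51 by the others (limma adjusted p 0.409, 0.440, 0.945 and 0.379). Irak1, the kinase bound by Myd88, gave 0.13, -0.23 and -0.06 by its 3 probes. The kinase Map3k7 gave 0.03 and -0.31, and the inhibitor kinase subunits Ikbkb and Ikbkg gave -0.03 and 0.13 by their brightest probes and 0.05 and -0.19 by the others. For Traf6, Irak1, Map3k7, Ikbkb and Ikbkg, probes of the same gene thus differed in sign. Some of these values were smaller than their SE, so their sign says little. They include -0.03 ± 0.15 (SE) for Traf6, 0.03 ± 0.12 for Map3k7, and -0.03 ± 0.10 and 0.05 ± 0.17 for Ikbkb. No probe in the annotation used carries the symbols Irak4 or Chuk, which are not analysed here.

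Of 13 other NF-kB and inhibitor proteins and brakes, 12 were tested, with a median of -0.04. The NF-kB subunit Relb was at -0.27 (limma adjusted p = 0.404) and Nfkb2 at 0.02, and Rel was above background on 1 array. The inhibitor Nfkbib was at -0.11 and the deubiquitinase Tnfaip3, a feedback brake, at 0.13. Among 28 listed NF-kB target genes other than members, 18 were tested, 8 above 0 and 10 below, with a median of -0.04. The list ran from -0.83 for the chemokine Ccl5 (limma adjusted p = 0.552) to 0.44 for the acute-phase gene Saa3 (limma adjusted p = 0.379), with the survival gene Bcl2l1 at -0.70 (limma adjusted p = 0.410), and the adhesion molecule Icam1 was at -0.17. The inflammatory targets Cxcl2, Ccl2, Il6 and Tnf were above background on 0 arrays, whereas Cxcl1 was above it on all 12. Detection was not particular to Cxcl1: Ccl5, Lcn2 and Icam1 were also above background on 12 arrays, and Cxcl10 and Ccl20 on 10 by their brightest probes. The 6 tested inflammasome genes had a median of 0.18, the 8 tested Toll-like receptor genes 0.01, and the 14 tested immediate early genes, which respond to handling and stress, -0.08. Macrophage markers, 7 tested, had a median of -0.08 with 6 below 0, and C1qb (-0.29) and C1qc (-0.35) were lower at an unadjusted p under 0.05 (limma adjusted p 0.410 and 0.379). They summed to 3004 to 3593 in controls and 2545 to 3555 in ethanol kidneys.

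**Figure D5:**
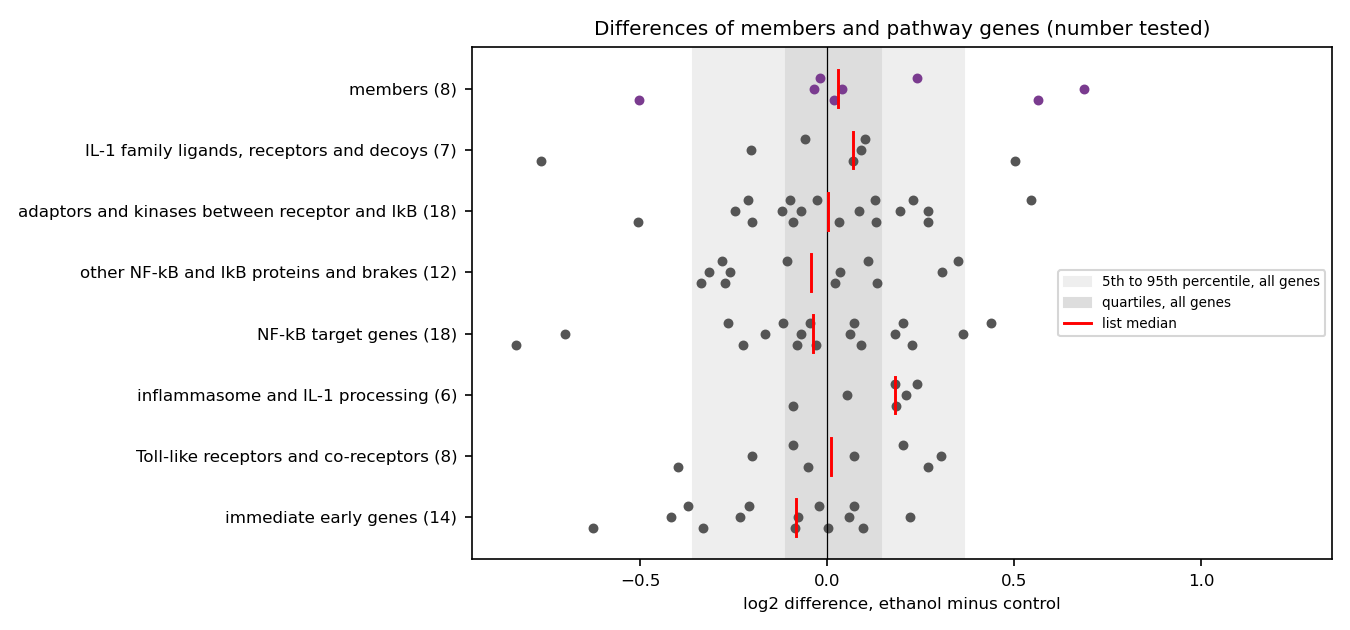
Log2 difference (ethanol minus control) of the 8 member genes and of each tested gene in 7 lists of the route, with 1 point a gene, red bars at list medians and shading for the quartiles and the 5th to 95th percentiles of all 12618 genes. List medians lie between -0.08 and 0.18. Il1r1, Nfkbiz and Cxcl1 lie outside the wider band, and so do genes of the other lists, such as Sigirr, Il18r1, Tab3 and Ccl5. The members were listed with this comparison known.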

How the data were processed

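Per the labels, biotin-labelled RNA of 12 kidneys was read on Illumina arrays. The deposited values are linear intensity with background subtracted, from GenomeStudio per the submitters' processing notes; for its version, background method, array scaling and genome build: not given in the sources used here. Between 8.16% and 33.3% of an array's values lay below 0. A second table, whose 24 columns carry names that match no label, was not analysed here, and the background planned from it was estimated from the deposited intensity instead.

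On each array the mode (kernel density, bandwidth 2, below the 0.6 quantile) was taken as background mean and the spread below it as SD. A normal-exponential correction, an offset of 16, quantile normalization and log2 of the deposited values followed, in limma 3.58.1 under R 4.3.3. Ethanol was compared with control by lmFit and eBayes over the 23984 tested probes, with Benjamini-Hochberg adjustment. By the platform annotation 34885 probes had 1 symbol, 18 had several and 10378 had none; a gene was represented by its tested probe with the highest mean. The scripts were tested on simulated data. The members, lists and named genes (all members, 3 nearest genes for each, and fixed partners) were chosen with earlier results of these data known; list genes at the ends of a range or past an unadjusted p were named after their values were seen. Alternatives covered background, offset, scaling, filter, weights, variance prior, probe, replicate number and left-out kidneys. The number of arrays limits the precision.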

Additional observations from a re-analysis of the deposited data

Results flagged for a closer look

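Of 20 groups of 6 kidneys checked over the 10 tested member probes, 2 held a kidney whose gap to its nearest neighbour was large for the group's range, where chance gives about 1 in 20. In the controls, control 4 was highest for the brighter Myd88 probe (11.00), and its gap took up 0.649 of the range of the group. Without it the Myd88 difference was 0.11. In the controls, control 6 was lowest for Cxcl1 (5.22), with a gap of 0.694 of the range, and without it the Cxcl1 difference was 0.37.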

How the results depend on the processing

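The count of called probes was 0 by limma in the reported setting, with 2915 at an unadjusted p under 0.05, and 0 in all 23 alternatives. The unadjusted counts ran from 1138 without ethanol 2 and ethanol 3 to 4096 with no filter; they were 1830 without ethanol 2 and 1849 without ethanol 3. The smallest adjusted p ran from 0.0548 without ethanol 4 to 0.961 without ethanol 2 and ethanol 3. With the replicate number as a block (replicate block) the count of calls was 0, with 3555 probes at an unadjusted p under 0.05 and a smallest adjusted p of 0.0697. Same-numbered samples correlated between 0.00 and 0.46 after subtracting group means. The labels give them only a shared replicate number, so no pairing was used. Whether they share anything more was not tested. Settings that left out control 4 with control 6, or ethanol 2 with ethanol 3, and the other Nfkbia probe were chosen after seeing the data.

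Member differences kept their sign in all alternatives for Il1r1, Il1b, the dimmer Nfkbia probe, Nfkbiz and Cxcl1. They turned in some for Il1rn, Myd88, the brighter Nfkbia probe and Rela. The filter, variance prior and replicate block settings leave a difference as it stands, so they could not turn a sign. Il1r1 was -0.85 without background correction, -0.28 with an offset of 50 and -0.30 from the deposited intensities as they stand; the cause was not tested. The correlation of Myd88 and Rela ran from -0.0313 (without control 4) to 0.72 when 1 kidney was left out, and was -0.0366 without control 4 and control 6. That of Nfkbiz and Rela ran from -0.72 to 0.0459 (without control 4), and was 0.24 both without control 4 and control 6 and without the 2 farthest kidneys. These correlations turned with control 4, and the cause was not tested. The median of the neutrophil markers was -0.04 with the strict filter and -0.01 without control 4 and control 6. Il1r1, Il1b and Il1rn lie near background, which limits what can be said of their size.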
